A study of Rattus norvegicus with 3 samples.

Results

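Osmr, Il6st, Lifr, Il6r, Stat3, Socs3, Cebpb and Cebpd are 8 genes of the gp130 cytokine receptor system and of the Stat3-Socs3 axis below it. They were chosen by name for that role, with earlier results of these data known. The shares of them called below are thus a description and no independent check. They make up 8 of the 30560 features counted in single nuclei of rat brain, and each was found once by its symbol. Their unique molecular identifiers (UMIs, 1 for each captured RNA molecule) were summed over all barcodes of a library and over barcodes sorted into cell classes by the UMIs of marker genes.

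Il6st encodes gp130, the signalling chain shared by the receptors of the interleukin-6 family of cytokines. Osmr binds oncostatin M and Lifr binds leukemia inhibitory factor, each as a partner of gp130, whereas Il6r binds interleukin-6 and brings it to gp130. Janus kinases bound to gp130 phosphorylate Stat3, which enters the nucleus and switches on genes that include Socs3, an inhibitor that binds the receptor and its kinases and limits the signal. Cebpb and Cebpd encode C/EBP beta and C/EBP delta, transcription factors of the acute phase response. In the brain the endothelium of blood vessels is known as the surface on which cytokines of the circulation first act.

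The animals were female wild-type Crl:CD(SD) rats, an outbred stock, aged 12 weeks. LPS at 5 mg/kg (lipopolysaccharide of the bacterial outer membrane, sensed by Tlr4), poly(I:C) at 12 mg/kg (a synthetic double-stranded RNA that mimics viral RNA, a ligand of Tlr3) or saline was injected into the abdominal cavity 7 hours before the brain was taken. The study asked how brain cells respond to immune challenges given outside the brain. Nuclei of 4 animals were pooled for each treatment and gave 1 library per group by the 10x Genomics 5′ chemistry. Nuclei were not traced to animals, so differences between libraries have no replicate check and no test or p-value was computed. Values in brackets are exact 95% intervals that cover counting error only. A level is given in CPM, a gene's UMIs scaled to 1000000 UMIs of the same barcodes, and a gene is called higher or lower where its level differs at least 2-fold between 2 libraries that together hold at least 10 of its UMIs.

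The LPS library held 11211 barcodes with 29763787 UMIs, the poly(I:C) library 15001 barcodes with 21340578 UMIs, and the saline library 25435 barcodes with 35532360 UMIs. The median barcode had 2436 UMIs after LPS, 1264 after poly(I:C) and 1165 after saline, and the lowest had 500, 403 and 440 in the same order. Between 247 and 550 barcode sequences occurred in both of any 2 libraries. Leaving out all 1203 sequences found in more than 1 library kept each count of members called. Most barcodes carried neuronal RNA, with Syt1, a synaptic vesicle protein gene, found in 9449 LPS, 13469 poly(I:C) and 22746 saline barcodes. Marker UMIs left 59.95% of the LPS, 77.5% of the poly(I:C) and 78.6% of the saline barcodes in no class.

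Over all barcodes, Osmr, Socs3, Cebpb and Cebpd were 4.11- to 14.7-fold higher after either treatment, while Il6st, Lifr, Il6r and Stat3 were within 2-fold of saline. Among the receptors, Osmr had 264 UMIs after LPS, 272 after poly(I:C) and 55 after saline, or 8.87, 12.7 and 1.55 CPM. Both treated libraries stood well above saline, with ratios of 5.73 [4.27 to 7.81] for LPS and 8.23 [6.14 to 11.2] for poly(I:C). Il6st had 1038 UMIs after LPS, 676 after poly(I:C) and 932 after saline, which is 34.9, 31.7 and 26.2 CPM. Its ratios of 1.33 [1.22 to 1.45] for LPS and 1.21 [1.09 to 1.33] for poly(I:C) lie above 1 by more than counting error but below 2. Lifr had 396, 332 and 551 UMIs after LPS, poly(I:C) and saline, or 13.3, 15.6 and 15.5 CPM. It was the member with the least difference, at 0.858 [0.752 to 0.978] for LPS and 1.0 [0.873 to 1.15] for poly(I:C). Il6r had 934 UMIs after LPS, 676 after poly(I:C) and 836 after saline, with ratios of 1.33 [1.21 to 1.47] and 1.35 [1.21 to 1.49].

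Downstream of the receptors, Stat3 had 1502 UMIs after LPS, 1093 after poly(I:C) and 1112 after saline, or 50.5, 51.2 and 31.3 CPM. The ratios were 1.61 [1.49 to 1.74] for LPS and 1.64 [1.5 to 1.78] for poly(I:C). Socs3 had 121 UMIs after LPS and 106 after poly(I:C), against 12 after saline. That is 4.07, 4.97 and 0.338 CPM, and ratios of 12.0 [6.64 to 23.9] and 14.7 [8.08 to 29.4] made it the member with the largest difference in both comparisons. Cebpb had 210, 155 and 54 UMIs in the LPS, poly(I:C) and saline libraries, 4.64-fold [3.43 to 6.38] higher after LPS and 4.78-fold [3.49 to 6.64] higher after poly(I:C). Cebpd had 224, 180 and 65 UMIs in the same order, 4.11-fold [3.11 to 5.51] and 4.61-fold [3.45 to 6.22] higher.

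Thus 4 of 8 members were called higher for LPS and none lower, where 3.24% of the 17539 genes measured were higher and 2.85% lower. For poly(I:C) the count was also 4 of 8, where 2.87% of 17268 genes were higher and 4.37% lower. Both comparisons use the same saline library. Over all barcodes, fewer cells of a type and less RNA per cell cannot be told apart. LPS barcodes were deeper, and with every barcode thinned to 500 UMIs the LPS ratio was 9.95 for Osmr, 24.4 for Socs3 and 2.24 for Stat3, which brought the LPS count to 5 of 8.

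**Figure D1:**
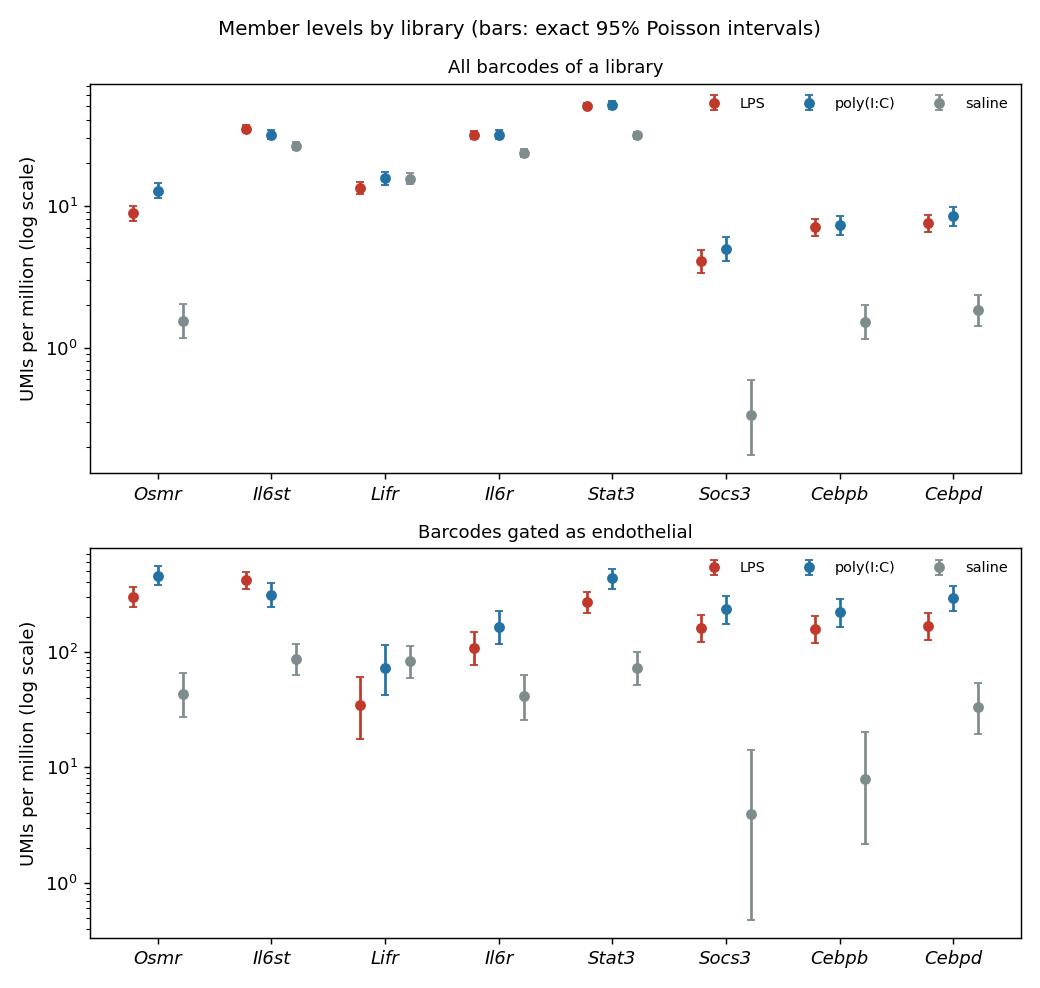
Levels of the 8 members in CPM (UMIs scaled to 1000000, log axis) in the LPS, poly(I:C) and saline libraries, over all barcodes above and over endothelial barcodes below. Points are 1 library each and bars are exact 95% Poisson intervals. Over all barcodes Osmr, Socs3, Cebpb and Cebpd lie at least 2-fold above saline in both treated libraries, and in endothelial barcodes every member except Lifr does.

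The UMIs of these genes came from different cells. Barcodes with endothelial markers were 194 of the LPS, 225 of the poly(I:C) and 421 of the saline barcodes, or 1.73%, 1.5% and 1.66%. They held 39.4% of all Osmr UMIs after LPS, 39.7% after poly(I:C) and 40.0% after saline. The endothelial share of Osmr UMIs was therefore about the same in the 3 libraries. For Socs3 the endothelial share was 46.3% after LPS and 51.9% after poly(I:C), against 16.7% after saline, where it rests on 2 of 12 UMIs. Cebpb had 26.2% and 33.5% of its UMIs there after LPS and poly(I:C), against 7.41% after saline, and Cebpd had 25.9% and 38.3%, against 26.2%. Of Il6st UMIs 14.0% were endothelial after LPS and 10.9% after poly(I:C), against 4.72% after saline. Stat3 and Il6r had at most 9.33% of their UMIs in endothelial barcodes, and most of them, from 51.6% to 80.7%, in barcodes of no class. The endothelial share of Lifr UMIs was 3.03% after LPS, 5.12% after poly(I:C) and 7.62% after saline.

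**Figure D2:**
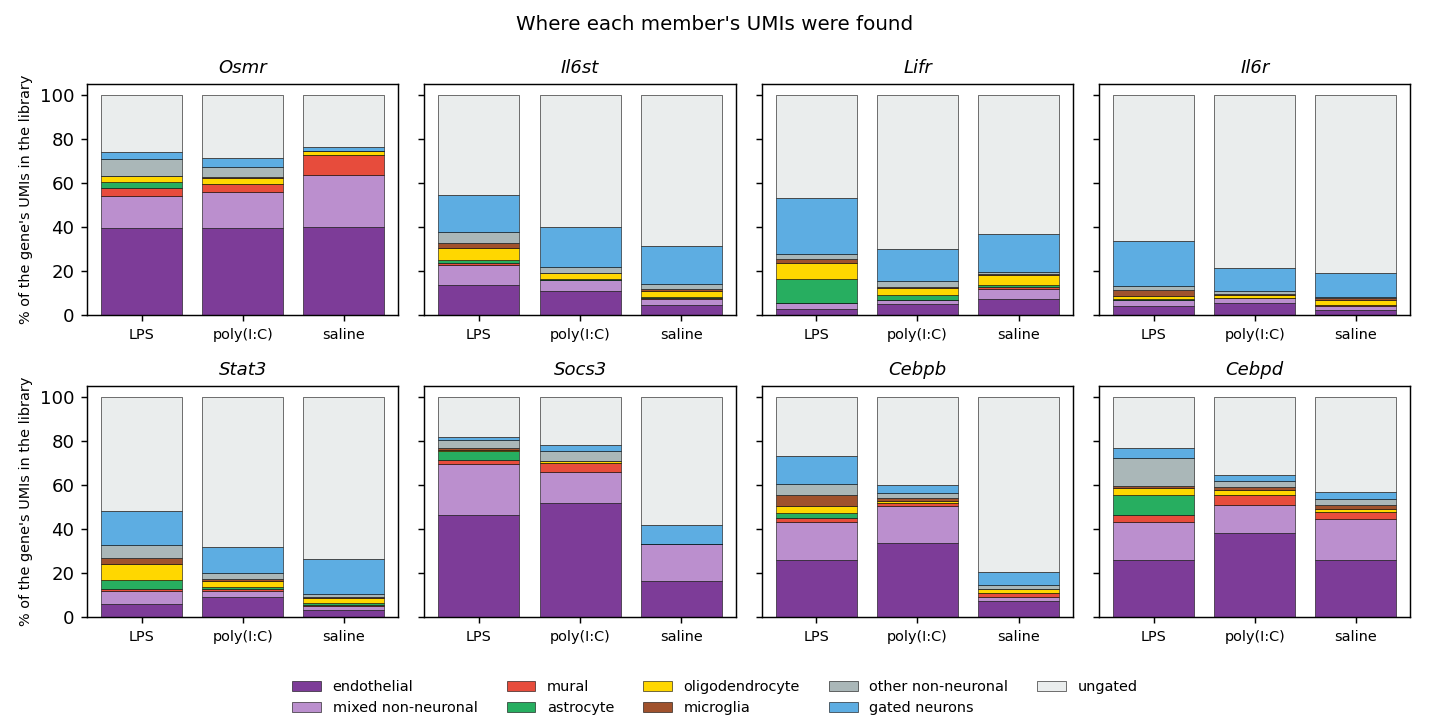
Share of each member's UMIs in a library (percent) that was found in each class of barcodes, with LPS, poly(I:C) and saline from left to right. Mixed non-neuronal barcodes had markers of more than 1 non-neuronal class, and ungated barcodes had too few markers of any class. Osmr and, in the treated libraries, Socs3 have their largest share in endothelial barcodes, whereas Stat3, Il6r and Il6st have theirs in ungated barcodes, of which 91.6% to 92.9% had a Syt1 UMI.

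The endothelial label was checked against its markers. All 15 of the 17 endothelial markers that the feature table holds were detected in each library, and together they had 6399, 6758 and 6666 CPM after LPS, poly(I:C) and saline. Single markers were less even: Tie1 had 37.2 CPM after LPS and 29.6 after poly(I:C), against 165 after saline, while Cdh5 had 275 and 672, against 120. Mural markers, 11 of 12 in the feature table, were present at 1279, 1865 and 2019 CPM with 2, 1 and 0 of them at 0, so pericyte or smooth muscle RNA is part of these barcodes, most in saline. Neutrophil markers had 82 UMIs after LPS and 27 after poly(I:C), against 2 after saline, with 6 of the 8 markers at 0 in each library. T and NK cell markers had 0, 0 and 7 UMIs. Erythroid markers, 1 of 3 in the feature table, had 349, 295 and 1195 UMIs, or 999, 1248 and 2354 CPM, again most in saline. Neuronal RNA was present too, with Syt1 in 45.4% of the LPS, 47.1% of the poly(I:C) and 55.1% of the saline endothelial barcodes, and the median depth was 991, 717 and 881 UMIs.

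In endothelial barcodes 7 of the 8 members were higher after both LPS and poly(I:C), from 2.63-fold to 59.0-fold, and Lifr stood apart from them. Osmr had 104 UMIs after LPS and 108 after poly(I:C), against 22 after saline, or 298, 457 and 43.3 CPM. Each treated library had more Osmr UMIs than saline from fewer barcodes. The ratio was 6.87 [4.30 to 11.4] for LPS and 10.5 [6.62 to 17.5] for poly(I:C). Il6st had 145 UMIs after LPS and 74 after poly(I:C), against 44 after saline, which is 415, 313 and 86.7 CPM. The shared chain was thus 4.79-fold [3.40 to 6.87] higher after LPS and 3.61-fold [2.45 to 5.37] higher after poly(I:C), where over all barcodes it was not called.

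Il6r had 38 and 39 UMIs after LPS and poly(I:C), against 21 after saline, and ratios of 2.63 [1.5 to 4.71] and 3.99 [2.29 to 7.13]. Lifr had 12 UMIs after LPS, 17 after poly(I:C) and 42 after saline, or 34.3, 71.9 and 82.7 CPM. It was the only member with a ratio below 1 for either treatment, 0.415 [0.199 to 0.803] for LPS, which was called lower, and 0.869 [0.464 to 1.56] for poly(I:C), which was not. The LPS value rests on 12 UMIs. It was no longer called with barcodes thinned to 500 UMIs (0.598), with a looser gate (0.520) or in the barcodes without a Syt1 UMI, 106 after LPS and 189 after saline, where it was 0.811.

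Stat3 had 94 UMIs after LPS and 102 after poly(I:C), against 37 after saline, or 269, 431 and 72.9 CPM. Stat3 was 3.69-fold [2.50 to 5.56] higher after LPS and 5.92-fold [4.03 to 8.87] higher after poly(I:C). Socs3, the feedback inhibitor, had 56 UMIs after LPS and 55 after poly(I:C), against 2 after saline, or 160, 233 and 3.94 CPM. Nearly all endothelial Socs3 UMIs of the series were thus in the treated libraries. The ratios were 40.7 [10.7 to 344] and 59.0 [15.6 to 499.7], and their wide intervals come from the 2 saline UMIs.

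Cebpb had 55 UMIs after LPS and 52 after poly(I:C), against 4 after saline, with ratios of 20.0 [7.37 to 75.9] and 27.9 [10.3 to 106]. Cebpd had 58 and 69 UMIs, against 17, with ratios of 4.96 [2.85 to 9.08] and 8.71 [5.07 to 15.8]. Both transcription factor genes thus stood above saline in each treated library. The Cebpb promoter is shown because Cebpb is the member of largest difference whose RefSeq window reaches the annotated start of its gene. It covers the 250 bases before that start on the plus strand of GRCr8, chr3:176816755-176817004, and capitals mark a TATA box match (TATAAA) whose first base lies 33 bases upstream of the start.
Cebpb: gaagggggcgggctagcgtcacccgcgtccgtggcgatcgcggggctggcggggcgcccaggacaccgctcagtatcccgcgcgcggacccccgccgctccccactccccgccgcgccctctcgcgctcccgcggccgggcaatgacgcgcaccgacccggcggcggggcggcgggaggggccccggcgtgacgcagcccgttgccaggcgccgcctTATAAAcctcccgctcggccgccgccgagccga
RefSeq windows were found for 7 of the 8 members. In the 250 bases searched in each window no match was found on either strand to a STAT motif (TTCNNNGAA, in 7.67% of 33469 windows), a C/EBP motif (TTGCNNAA, 9.22%) or an NF-kB motif (GGG, 3 bases of any kind, then TTCC, 4.53%). TATAAA is in 12.9% of windows, and none of the 4 letter strings overlap in the stretch shown. The windows of the other 6 members end 154 to 11602 bases inside the annotated gene, so they lie wholly or partly within it and are not shown. For these 6 the lack of a match does not describe the promoter. At such low shares over all windows it says little for any of the 7.

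For LPS, then, 7 of 8 members were higher and 1 lower in endothelial barcodes, where 7.56% of 9876 measured genes were higher and 10.3% lower. For poly(I:C) 7 of 8 were higher and none lower, where 8.45% of 9409 genes were higher and 16.1% lower. The median log2 ratio of the members was 2.28 for LPS and 2.84 for poly(I:C), against -0.05 and -0.17 over all genes measured. Without the barcodes that carry a neutrophil marker UMI, 191 after LPS, 217 after poly(I:C) and 419 after saline remained, and the counts were again 8 and 7 of 8, with Socs3 at 39.5 and 61.1. Leaving out barcodes with any neutrophil, microglial or mural marker UMI left 29, 40 and 63 barcodes. There Osmr was at 5.49 [1.10 to 53.1] for LPS and 10.0 [2.23 to 92.0] for poly(I:C), and Il6st at 5.49 [1.77 to 22.6] and 4.17 [1.20 to 18.2]. Stat3 was smaller, at 2.35 [0.854 to 7.06] and 2.62 [0.928 to 7.97], with intervals that include 1. Socs3 was at least 2.75-fold and 4.45-fold higher against no UMI after saline, and Cebpb at least 2.78-fold higher after poly(I:C), all from fewer UMIs than a call needs. Cebpd was at 1.37 [0.0175 to 108] for LPS, where too few UMIs remained for a call, and Il6r at 15.0 [2.08 to 658] for poly(I:C). Mural marker levels in endothelial barcodes were lower in the treated libraries, whereas mural barcodes themselves had higher Osmr, Stat3 and Cebpd levels there. The part of mural RNA in the endothelial ratios was not tested.

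**Figure D3:**
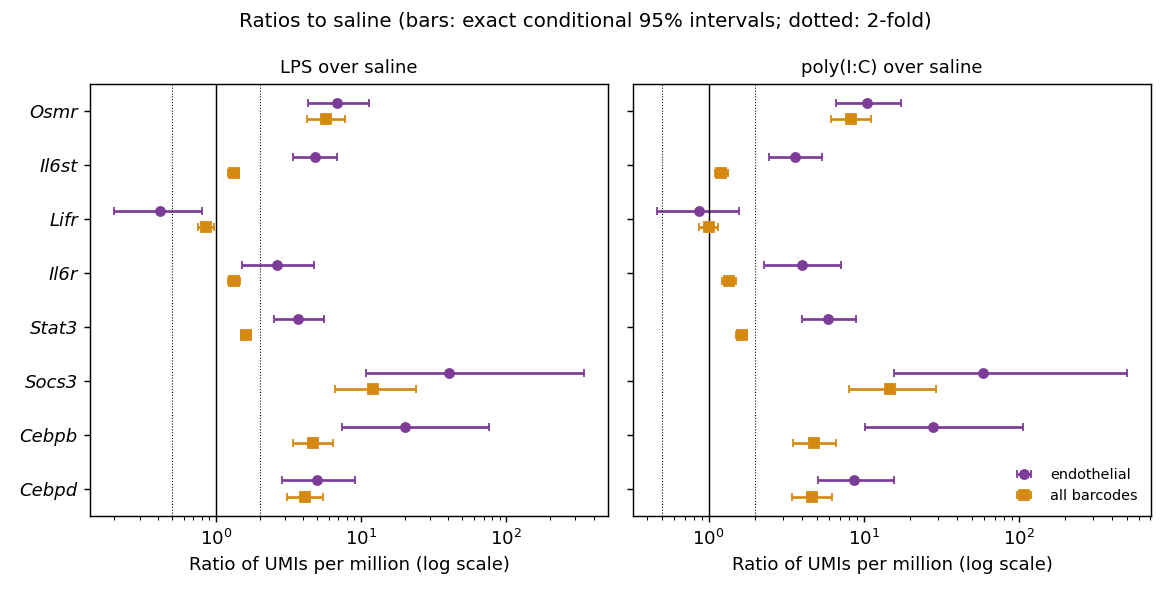
Ratio of the level to saline (log axis) for each member, LPS on the left and poly(I:C) on the right. Circles are endothelial barcodes, squares are all barcodes, bars are exact conditional 95% intervals and dotted lines mark 2-fold. Endothelial ratios of Il6st, Il6r and Stat3 lie above 2 where those over all barcodes lie between 1 and 2, and Lifr alone lies below 1 in endothelial barcodes.

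Single endothelial barcodes showed the same pattern. Because depth differed, each barcode was thinned to 500 UMIs, which kept 194 LPS, 176 poly(I:C) and 381 saline barcodes and left out 0, 49 and 40. An Osmr UMI was then found in 22.2% of LPS and 27.3% of poly(I:C) barcodes, against 3.67% of saline barcodes, and without thinning in 39.7%, 36.4% and 4.99%. Socs3 was found in 12.9% and 10.8%, against 0.262%, and without thinning in 22.2%, 20.9% and 0.475%. In excitatory neuron barcodes, which should hold little of either gene and had median depths of 3535, 2013 and 2139 UMIs, the thinned shares were 0%, 0% and 0.182% for Osmr and 0.121%, 0% and 0% for Socs3. The exact intervals of the shares at 0 reach up to 0.446% after LPS, 1.05% after poly(I:C) and 0.670% after saline. Endothelial shares of Osmr in each library and of Socs3 after treatment were thus above this background, and the saline share of Socs3 was not told apart from it. At least 2 of the 8 members were found in 32.5% of thinned LPS and 32.4% of poly(I:C) endothelial barcodes, against 1.84% of saline ones. Such a share also rises where each member is found more often by itself. Whether members were higher in the same nuclei was not tested.

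**Figure D4:**
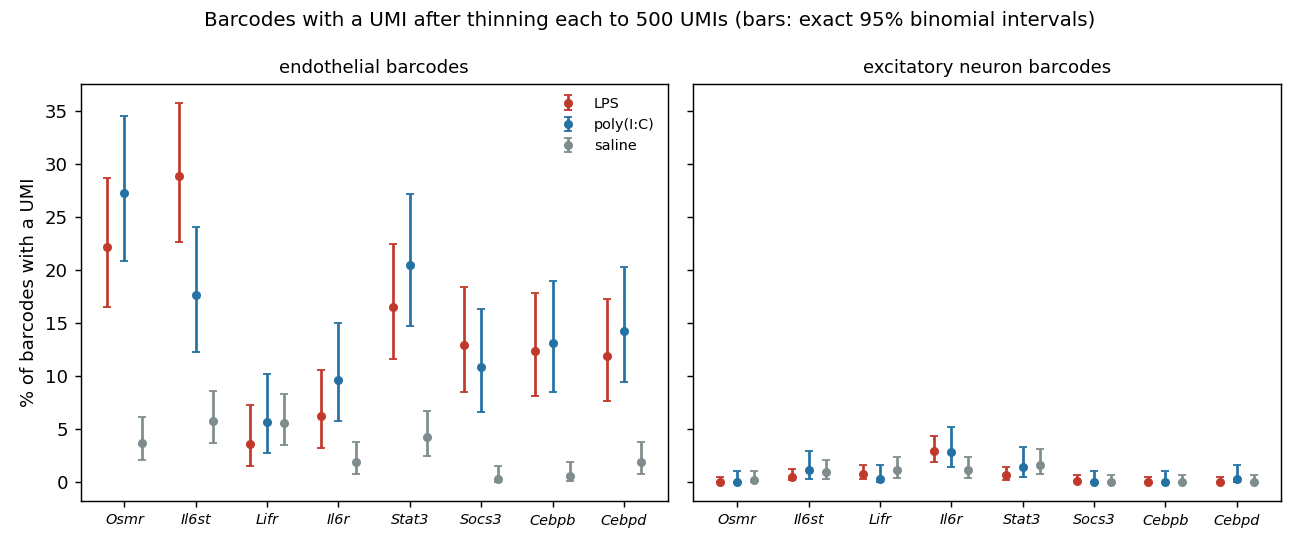
Percent of endothelial (left) and excitatory neuron (right) barcodes with a UMI of each member after every barcode was thinned to 500 UMIs, with exact 95% binomial intervals. In endothelial barcodes the treated libraries lie above saline for every member but Lifr, and in excitatory neuron barcodes no share is above 2.91%.

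Outside the endothelium Stat3 was called higher after LPS in 6 classes, more than any other member, while Osmr and Socs3 had few UMIs in glia. Stat3 is also the member with the most UMIs. From 2 to 4 of the 8 members had enough UMIs for a call in these classes, so members with few UMIs could not be ranked against it. A member with few UMIs after saline had enough for a call only where its treated count was high. Counts of measured members called higher are thus partly set by that minimum. In oligodendrocyte barcodes, 1035 after LPS, 433 after poly(I:C) and 866 after saline, Stat3 had 112, 30 and 27 UMIs, or 94.1, 68.1 and 28.8 CPM. It was 3.27-fold [2.13 to 5.17] higher after LPS and 2.37-fold [1.36 to 4.14] higher after poly(I:C), where thinning to 500 UMIs gave 1.48. It was the only 1 of 4 measured members called in either comparison, where 5.13% and 3.94% of genes were higher. Oligodendrocyte markers summed to 11118, 7884 and 7710 CPM and pan-neuronal markers to 2293, 3559 and 3618 CPM after LPS, poly(I:C) and saline, and their part in the Stat3 ratio was not tested. Il6st was not called, at 1.90 [1.16 to 3.20] and 1.77 [0.929 to 3.35]. Lifr was nearly level, at 0.951 [0.535 to 1.71] and 0.976 [0.431 to 2.07].

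Astrocyte barcodes numbered 241 after LPS, 48 after poly(I:C) and 94 after saline. Stat3 had 63, 8 and 7 UMIs there, 3.28-fold [1.5 to 8.49] higher after LPS, and 2.41-fold [0.762 to 7.80] after poly(I:C), where the interval includes 1. Lifr had 42, 7 and 5 UMIs and was 3.06-fold [1.21 to 9.91] higher after LPS. That is the opposite direction to its endothelial value, which was not called under every alternative. Cebpd had 20 UMIs after LPS and 0 after poly(I:C) and saline, at least 2.43-fold higher than saline by the limit of 3 counts that a count of 0 allows. These made 3 of 4 measured members higher after LPS, where 12.6% of 6390 genes were. None of the 3 reached 10 UMIs after saline, so that count is partly set by the minimum for a call. For poly(I:C) Lifr and Stat3 were the 2 members measured, and both were called with intervals that include 1, where 8.61% of genes were higher. Astrocytes were 2.15% of LPS barcodes and at most 0.370% of the others, so their number differed as well. Cebpd was not called with at least 500 genes per barcode, with thinning to 500 UMIs, with the stricter gate or without a Syt1 UMI, where its bound lay between 0.762 and 1.67. Stat3 for poly(I:C) was not called with thinning (1.30), the looser gate (1.63) or at least 500 genes (1.66). Pan-neuronal markers in them summed to 2387, 3881 and 3930 CPM after LPS, poly(I:C) and saline, and the part of that RNA was not tested.

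Ependymal and choroid plexus barcodes, which line or secrete the fluid of the ventricles, had the receptor chain and Stat3 in common after LPS. Ependymal barcodes numbered 90 after LPS and 80 after saline, with 22 Stat3 UMIs against 3, a ratio of 7.22 [2.17 to 37.7], and 19 Il6st UMIs against 7, a ratio of 2.67 [1.08 to 7.53]. In choroid plexus, 48 LPS and 58 saline barcodes, Il6st had 10 UMIs against 2 and a ratio of 6.63 [1.41 to 62.2], and Stat3 had 13 against 5 and a ratio of 3.45 [1.15 to 12.3]. Both measured members were called in each class, where 15.1% of genes were higher in ependymal and 11.9% in choroid plexus barcodes. No saline count of these members reached 10 UMIs, so they were measured only through LPS and the count is partly set by the minimum. Ependymal Cebpd had 9 UMIs after LPS and 0 after saline, below the minimum for a call. Ependymal markers summed to 11308 CPM after LPS, against 6659 CPM after saline, astrocyte markers in the same barcodes to 1760 against 1018 CPM, and pan-neuronal markers to 2124 against 3514 CPM. In choroid plexus barcodes the choroid plexus markers were at 6166 against 4534 CPM, ependymal markers at 1250 against 675 CPM and pan-neuronal markers at 2515 against 3645 CPM, and the part of these differences in the member ratios was not tested. The poly(I:C) library had too few barcodes of choroid plexus for a comparison, and no member was measured in ependymal barcodes for poly(I:C) over saline.

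Microglial barcodes, 109 after LPS, 54 after poly(I:C) and 47 after saline, had 40, 9 and 3 Stat3 UMIs. The ratio was 4.13 [1.31 to 20.9] for LPS and 3.29 [0.820 to 18.9] for poly(I:C), and Stat3 was the only member called of 4 and of 2 measured, where 13.2% and 10.5% of genes were higher. Osmr had 0, 1 and 0 UMIs in them and Socs3 1, 0 and 0, so both genes were at single molecules at this depth. Cebpb had 10 UMIs after LPS, 2 after poly(I:C) and 0 after saline. Microglial markers in these barcodes summed to 2504, 3781 and 2566 CPM after LPS, poly(I:C) and saline. In the same order, oligodendrocyte markers summed to 1856, 1777 and 2002 CPM and pan-neuronal markers to 4079, 3983 and 4418 CPM. The part of that RNA in the Stat3 ratio was not tested. Oligodendrocyte precursors had 23 Stat3 UMIs after LPS, 6 after poly(I:C) and 1 after saline, called for LPS at 4.48 [0.728 to 185] with an interval that includes 1, where 11.8% of genes were higher. Here and in microglial barcodes Stat3 reached 10 UMIs for LPS over saline only through its LPS count.

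Mural and fibroblast barcodes were too few to compare, so counts and levels are given without ratios. Osmr had 9, 10 and 5 UMIs in 24 LPS, 27 poly(I:C) and 57 saline mural barcodes, and Stat3 had 15, 10 and 6. The levels were 213, 396 and 67.2 CPM for Osmr and 355, 396 and 80.6 CPM for Stat3. Their intervals include the endothelial levels. Mural Socs3 had 2, 4 and 0 UMIs, or 47.3, 158 and 0 CPM, and its intervals do so as well. Mural Il6st, at 213 and 79.2 CPM after LPS and poly(I:C), had intervals that end below the endothelial levels of 415 and 313 CPM. In 29 LPS, 11 poly(I:C) and 33 saline fibroblast barcodes Osmr had 7, 5 and 0 UMIs and Stat3 15, 4 and 3. That is 167, 284 and 0 CPM for Osmr and 357, 228 and 60.3 CPM for Stat3. These intervals too include the endothelial levels. Fibroblast Socs3 had 0, 4 and 0 UMIs, or 228 CPM after poly(I:C), and its LPS interval ends below the endothelial level. Fibroblast Il6st was at 214 CPM after LPS and 569 CPM after poly(I:C), against 415 and 313 CPM in endothelial barcodes. Mixed non-neuronal barcodes, 157, 77 and 188 in number and in 64, 47 and 135 cases with both endothelial and mural markers, held 39, 44 and 13 Osmr UMIs and 28, 15 and 2 Socs3 UMIs. The treated libraries thus had more of both genes in mixed barcodes too, from fewer barcodes than saline. Neutrophil barcodes numbered 4, 10 and 0, with 2 Osmr UMIs after LPS and 6 after poly(I:C). Cebpd had 7 UMIs after LPS and 8 after poly(I:C), against 2 after saline, in mural barcodes, or 166, 317 and 26.9 CPM, which is near its endothelial level in each library. In neutrophil barcodes it had 7 UMIs after LPS and 2 after poly(I:C).

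**Figure D5:**
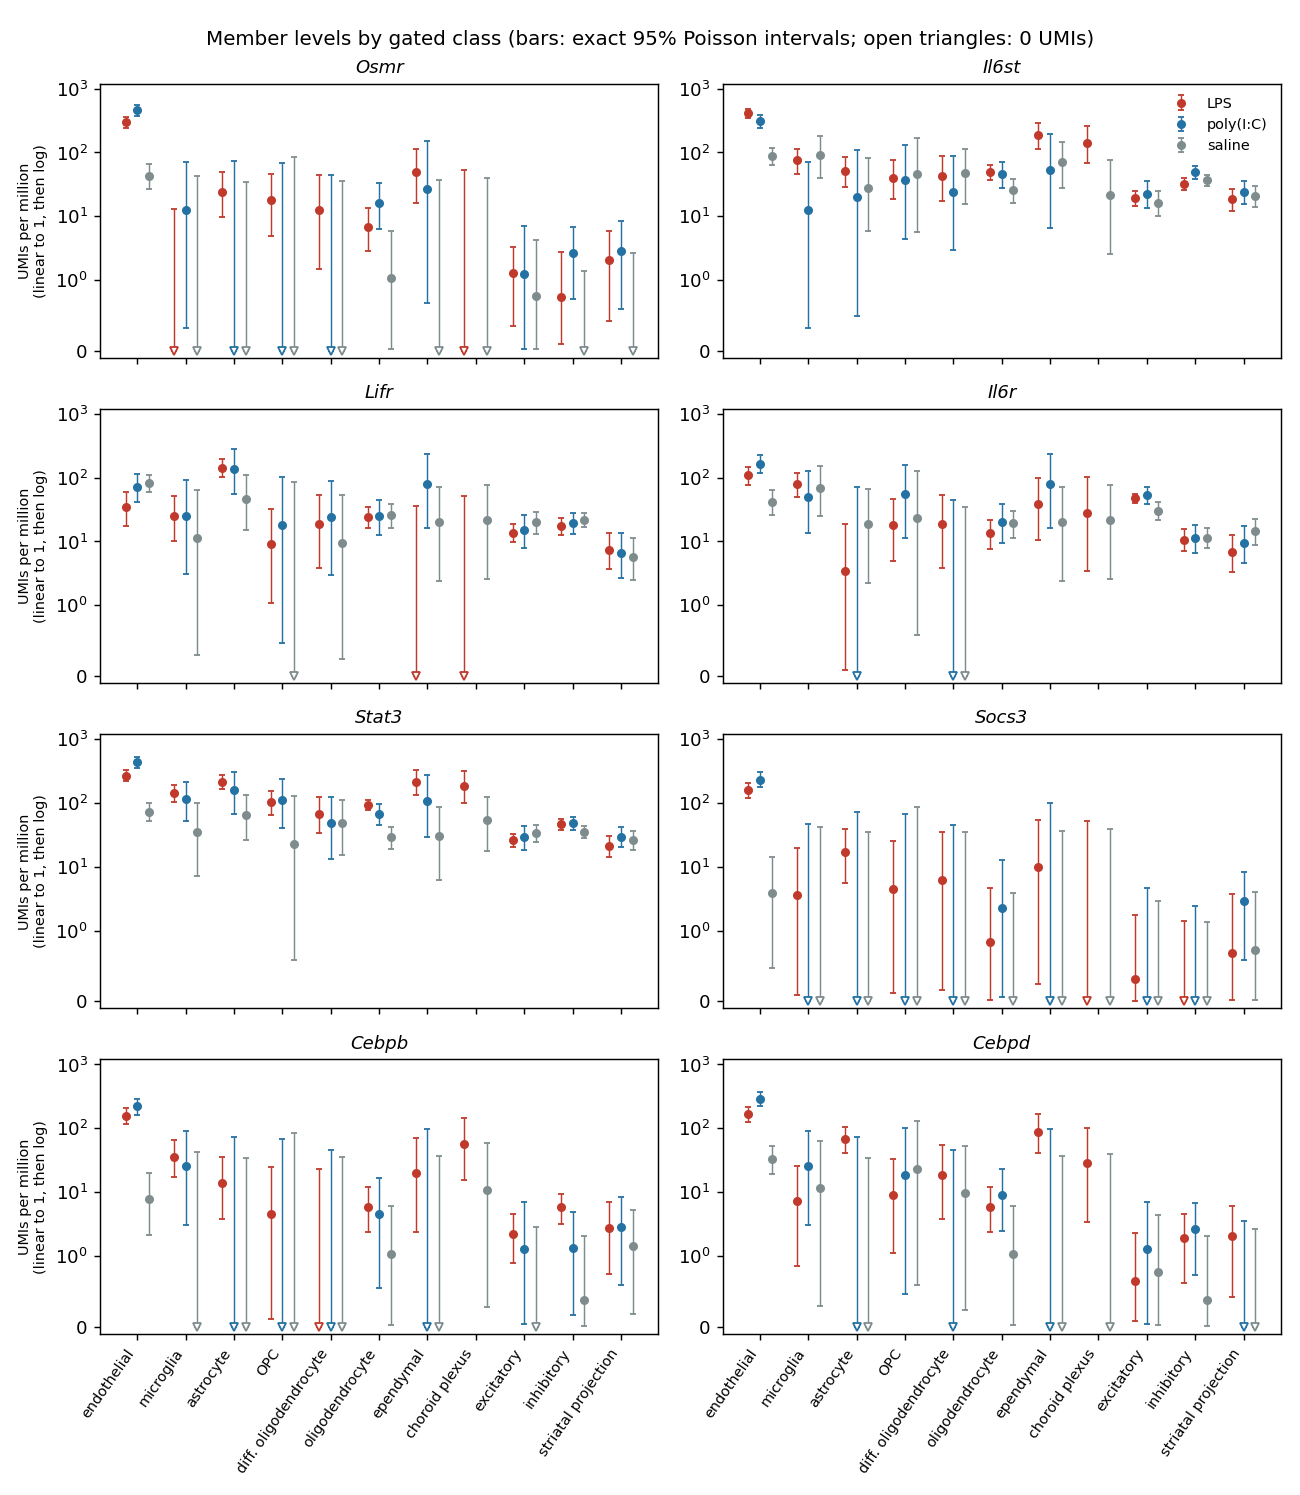
Level of each member in CPM (linear to 1, then log) in 11 gated classes, with LPS, poly(I:C) and saline from left to right within a class. Bars are exact 95% Poisson intervals, open triangles mark 0 UMIs, and the 27 poly(I:C) choroid plexus barcodes are left out. Mural, fibroblast and neutrophil barcodes are not drawn, and some of their levels were near or above the endothelial ones. Among the classes drawn, Osmr, Socs3, Cebpb and Cebpd are highest in endothelial barcodes of the treated libraries, whereas Stat3 is found in every class.

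In neurons few members were called. In excitatory neuron barcodes, 825 after LPS, 351 after poly(I:C) and 550 after saline, none of 4 measured members was called, where 3.34% of genes were higher and 4.28% lower for LPS, and 2.22% higher and 6.92% lower for poly(I:C). Il6r had 48.2 CPM after LPS and 54.1 after poly(I:C), against 30.2 after saline, ratios of 1.60 [1.12 to 2.33] and 1.79 [1.13 to 2.84] that lie above 1 by more than counting error. Stat3 was at 0.759 [0.520 to 1.12] and 0.850 [0.490 to 1.44], both with intervals that include 1. With barcodes thinned to 500 UMIs, Il6r was at 2.66 [1.06 to 7.96] for LPS and 2.62 [0.863 to 8.78] for poly(I:C), and Stat3 at 0.370 [0.0973 to 1.23] for LPS, past 2-fold on few UMIs. In inhibitory neuron barcodes Cebpb had 15 UMIs after LPS, 2 after poly(I:C) and 1 after saline, and the LPS ratio of 15.5 [2.38 to 652] was the only one called of 5 members, where 1.94% of genes were higher. With 1 UMI after saline, Cebpb was measured there only through its LPS count. In striatal projection neuron barcodes 1 of 4 measured members was called, Il6r at 10 UMIs after LPS against 20 after saline, lower at 0.473 [0.198 to 1.06], where 6.17% of genes were lower.

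Barcodes of no class held 68 Osmr UMIs after LPS and 78 after poly(I:C), against 13 after saline, with ratios of 7.49 [4.10 to 14.8] and 9.92 [5.47 to 19.4]. Socs3 had 22 and 23 UMIs, against 7, and Cebpd 52 and 64, against 28. So 3 of 8 members were called higher for LPS and, with Cebpb, 4 of 8 for poly(I:C), where 2.25% and 2.46% of genes were higher. Their endothelial markers summed to 39.2, 59.1 and 62.0 CPM after LPS, poly(I:C) and saline, and the part of endothelial RNA in these values was not tested. Stat3 was 1.36-fold [1.23 to 1.5] and 1.51-fold [1.37 to 1.67] the saline level there.

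LPS and poly(I:C) were also set against each other, a comparison that does not use the saline library. Over all barcodes none of the 8 members was called, where 3.78% of genes were higher after LPS and 2.18% lower. Osmr was at 0.696 [0.585 to 0.827] and Lifr at 0.855 [0.737 to 0.993], both lower after LPS by more than counting error. With every barcode thinned to 500 UMIs all 8 ratios were above 1, with Osmr at 1.35 [1.04 to 1.74] and Stat3 at 1.40 [1.22 to 1.62]. The order of the treatments over all barcodes thus differed with and without thinning. Thinning lowers the weight of deep barcodes and also leaves out those below 500 UMIs. The lowest barcode had 500 UMIs after LPS and 403 after poly(I:C), and the effects of weight and of leaving out were not separated. In endothelial barcodes 1 member was called, Lifr at 0.478 [0.208 to 1.06] with an interval that includes 1, where 10.6% of genes were higher and 7.04% lower. Osmr at 0.652 [0.493 to 0.861], Stat3 at 0.624 [0.466 to 0.834] and Cebpd at 0.569 [0.394 to 0.818] were lower after LPS than after poly(I:C) by more than counting error, though less than 2-fold. Without the barcodes with a Syt1 UMI the Osmr ratio was 1.0 and the Cebpd ratio 0.976. After thinning to 500 UMIs, the shares of endothelial barcodes with an Osmr, Stat3 or Cebpd UMI had intervals that overlap between LPS and poly(I:C). Il6st was the only member above 1 when all endothelial barcodes were used, at 1.33 [0.995 to 1.78]. In other classes Il6st was called higher after LPS than after poly(I:C) in microglial, astrocyte and ependymal barcodes, as 1 of 4, 1 of 4 and, with Stat3, 2 of 2 measured members, where 10.9%, 14.4% and 19.4% of genes were higher. The poly(I:C) library held 1 or 2 Il6st UMIs in each of these classes, and all 4 intervals include 1. Il6st was thus measured in them only through its LPS counts. Cebpb was called higher in inhibitory neuron barcodes, with 15 UMIs after LPS and 2 after poly(I:C), at 4.30 [1.0 to 38.8], where 3.73% of genes were higher. Osmr was called lower in oligodendrocyte barcodes, with 8 UMIs after LPS and 7 after poly(I:C), at 0.423 [0.134 to 1.37], where 4.97% of genes were lower.

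The ligands were scarce. Of 11 gp130 family ligand genes 9 were in the feature table, and none reached 10 UMIs in endothelial barcodes. Over all barcodes 6 were measured for LPS and 1 was called, and 5 for poly(I:C) with none called. The 1 was Il6, interleukin-6, with 12 UMIs in the whole LPS library, 0 in the poly(I:C) library and 7 in the saline library. It was 2.05-fold [0.743 to 6.14] the saline level after LPS, an interval that includes 1, and at least 2.87-fold higher after LPS than after poly(I:C). Of 6 other receptors of the family, Lepr, the leptin receptor, was the 1 measured in endothelial barcodes, with 3 UMIs after LPS, 9 after poly(I:C) and 43 after saline. It was lower at 0.101 [0.0201 to 0.317] and 0.449 [0.193 to 0.934]. Lifr was called lower there for LPS only, and not under every alternative. Csf3r, the receptor for granulocyte colony-stimulating factor, was higher over all barcodes with 19 and 13 UMIs after LPS and poly(I:C), against 5 after saline.

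Janus kinases and phosphatases were mostly level in endothelial barcodes, with 0 of 6 measured higher and 1, Tyk2, lower for LPS, and 1 higher and 0 lower for poly(I:C). Jak2, one of the Janus kinases, had 31 UMIs after poly(I:C) against 28 after saline, a ratio of 2.38 [1.38 to 4.11]. Among other STAT genes 2 of 3 measured were higher for each treatment. Stat4 had 77 and 133 UMIs after LPS and poly(I:C), against 23, with ratios of 4.86 [3.02 to 8.12] and 12.4 [7.93 to 20.3], and Stat2, which acts below interferon receptors, had 27 and 53, against 10. Stat5b was lower for LPS at 0.454 [0.236 to 0.825]. Stat4 and Stat2 were also lower after LPS than after poly(I:C), at 0.392 [0.292 to 0.523] and 0.345 [0.208 to 0.558], a contrast wider than that of Stat3.

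Other SOCS genes, inhibitors of the same build as Socs3, were higher in 3 of 6 for LPS (Socs1, Socs5 and Socs4) and 2 of 6 for poly(I:C). Socs1 had 26 and 40 UMIs after LPS and poly(I:C), against 5 after saline, with ratios of 7.55 [2.85 to 25.2] and 17.2 [6.78 to 55.8]. Socs5 had 46 and 36, against 24, with ratios of 2.78 [1.66 to 4.77] and 3.22 [1.87 to 5.64]. Of other C/EBP genes 1 of 4 was measured, Ddit3, a stress-response factor. It was called higher for both treatments, with 9 UMIs after LPS and 12 after poly(I:C), against 4 after saline, and ratios of 3.27 [0.912 to 14.5] and 6.44 [1.95 to 27.4]. Tyk2, Socs4 and, below, Bcl6 and Myc are named because they complete a count, chosen after their values were seen.

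The list of 18 Stat3 target and acute phase genes had 8 measured in endothelial barcodes, of which 6 were higher and 0 lower for LPS, and 7 higher and 1, Bcl6, lower for poly(I:C). Lcn2, the iron-binding protein lipocalin-2, had 114 UMIs after LPS and 19 after poly(I:C), against 3 after saline, or 326, 80.4 and 5.91 CPM. It was 55.2-fold [18.4 to 272] and 13.6-fold [4.0 to 71.7] higher than saline, and 4.06-fold [2.48 to 6.99] higher after LPS than after poly(I:C), the opposite side from Stat3 and Osmr. Neutrophil markers in these barcodes had 82, 27 and 2 UMIs after LPS, poly(I:C) and saline. Lcn2 was not compared again without the barcodes that carry them. Lrg1, a secreted glycoprotein of the vessel wall, had 68 and 41 UMIs, against 10, with ratios of 9.88 [5.06 to 21.5] and 8.80 [4.34 to 19.7]. Il4r, the interleukin-4 receptor chain, had 62 and 34, against 11. Junb, an AP-1 transcription factor, had 53 and 23, against 11. The median log2 ratio of the list was 2.92 and 2.93, against -0.05 and -0.17 over all genes. Over all barcodes 8 of 15 were higher and none lower for LPS, and 6 higher and 1, Myc, lower for poly(I:C).

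Genes with a pattern most like Osmr and Socs3 were sought over 34 class and library pairs with at least 30 barcodes, by Pearson's r of log2(level + 10) among 12459 genes. For Osmr the 5 highest were AC128848.1, Adamts1 (a secreted protease), Ifitm3 (an interferon-induced membrane protein), an unnamed feature and Upp1 (uridine phosphorylase), with r from 0.87 to 0.88. For Socs3 they were an unnamed feature at 0.93, Mt2A (a metallothionein) at 0.92, Fam43a and Lrg1 at 0.91 and Csrnp1 at 0.90. The pairs share libraries and classes, so r is a description of where the UMIs lie.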

How the data were processed

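Raw UMI counts were deposited per gene and barcode for 3 libraries. Per the submitters' processing notes the authors used Cell Ranger 7.0.0 and genome build mRatBN7.2. The annotation release and how cells were called are not given in the sources used here. Members and gene lists were chosen with earlier results of these data known. All deposited barcodes were used.

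A barcode entered a non-neuronal class with at least 4 UMIs of at least 3 markers at 5 times the pooled share, and a neuron class with 3 UMIs, 2 markers and 2 times. A rival class above 0.5 of the enrichment made it mixed. Of 173 marker symbols 8, and of 68 list symbols 5, were not found. Classes with at least 30 barcodes in both libraries were compared. Ratios carry exact conditional Clopper-Pearson intervals, levels exact Poisson intervals and shares exact Clopper-Pearson intervals, all at 95%. A count of 0 was set to 3 counts for bounds. Pathway genes were named when called with an interval that leaves out 1, up to 4 per list with the most UMIs.

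Scrublet, in scanpy 1.11.5, was run on barcodes with at least 500 genes and at most 5% mitochondrial UMIs, a limit set after a first run on all barcodes called none in 2 libraries. It called 9.66% of LPS, 5.38% of poly(I:C) and 6.73% of saline barcodes doublets, which were left out only as an alternative. The intervals were tested on simulated independent Poisson counts, the model they assume, so UMIs that cluster within barcodes were not tried. Analysis used Python 3.11.15, numpy 2.4.6, scipy 1.17.1 and pandas 2.3.3. The TATA box was added to the motifs after the Cebpb sequence was seen. Promoter windows are from RefSeq on GRCr8, and no file coordinates were converted.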

Additional observations from a re-analysis of the deposited data

How the results depend on the processing

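No paired analysis was possible because each group is 1 library and the labels carry no replicate numbers. Over all barcodes the number of members called was within 1.5 times its main value under all alternatives run. In endothelial barcodes the 8 called for LPS over saline became 3, and the 7 for poly(I:C) over saline became 4, without barcodes with a neutrophil, microglial or mural marker UMI, an alternative chosen after seeing the data that left 3 and 4 members measured. Leaving out barcodes with a neutrophil marker UMI alone, or adding mixed barcodes led by endothelial markers, both also chosen after seeing the data, gave the same 3 counts of 8, 7 and 1. For LPS over poly(I:C) the 1 member called, Lifr, became 0 with a minimum of 30 UMIs, a fold of 3, at least 500 genes, no called doublets, thinning to 500 UMIs, the stricter gate, or no Syt1 UMI, where its ratio was 1.16 and so turned direction. Of single member ratios 151 of 168 over all barcodes, 316 of 334 in endothelial and 185 of 198 in other classes moved by less than their counting interval. Of the shares of endothelial barcodes with a UMI only 20 of 48 did, and 28 moved, mostly upward without thinning. Most of those that moved over all barcodes did so with thinning, which raised the LPS ratios. Endothelial Socs3 after saline rests on 2 UMIs.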
